A study of Mus musculus with 3 samples.

Results

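Pml, Sp100, Sp110, Sp140 and Daxx are 5 mouse genes whose protein products belong to, or are related to components of, the PML nuclear body. They were taken by symbol and gene ID, and all 5 were found among 55536 annotated genes, of which 22028 are protein-coding. Their RNA was read in the chromatin fraction of macrophages grown from C57BL/6J bone marrow and exposed for 120 min to lipid A at 100 ng/ml. Lipid A is the part of bacterial lipopolysaccharide that triggers the receptor TLR4. The series has 1 group of 3 libraries of ribosomal RNA-depleted total RNA, labelled biological replicates 1, 2 and 3, and no untreated cells were analysed here, so no value below says whether lipid A changed a gene. All 3 share a donor label and no source says that they came from separate cultures, so their spread and every p measure differences between these libraries, which may be technical. The RNA that went into each differed, with 1 µg in replicate 1, 250 ng in replicate 2 and 500 ng in replicate 3, which cannot be told apart from the replicate itself.

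PML nuclear bodies are spheres of protein next to chromatin. Pml, a RING-finger protein of the TRIM family, forms their shell and becomes modified with SUMO, a small ubiquitin-like protein, and SUMO-binding partners such as Sp100 and Daxx gather inside. Sp100, Sp110 and Sp140 are paralogues that carry chromatin- and DNA-reading domains, and Sp140 is found mainly in blood cells. Sp110 and Sp140 lie in the mouse chromosome region that controls susceptibility to tuberculosis. Daxx is a chaperone that, with the remodeller Atrx, places the histone variant H3.3 in heterochromatin. Genes of PML bodies are known targets of interferon, which macrophages make after TLR4 is triggered. RNA on chromatin is rich in transcripts that are still being made or spliced, so the levels here are those of chromatin-bound RNA and not of messenger RNA in the cytoplasm.

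The libraries held 19751051, 20372850 and 21984526 expected counts in annotated genes in replicates 1, 2 and 3, where an expected count is a number of reads, not always whole, that the authors' counting assigned to a feature. The 8 macrophage markers summed to 442, 1410 and 346 TPM in replicates 1, 2 and 3, and all 8 had a mean of at least 1 TPM, the deposited level scaled by transcript length and library total, with Adgre1, which encodes the surface protein F4/80, at 188 ± 45.1 TPM. Of markers of other cells, the B cell list had 0 of 6 genes at that level, the NK cell list 0 of 4, the neutrophil list 0 of 6 and the dendritic cell list 0 of 5. Of the T cell markers 2 of 6 reached it, Cd28 at 6.67 ± 6.08 TPM and Lck at 3.66 ± 1.46 TPM. Cd3e, Cd3g and Trbc2 were at 0 expected counts in all libraries, and Cd3d averaged 0.0200 TPM. Of the plasmacytoid dendritic cell markers 2 of 4 reached it, the transcription factor gene Tcf4 at 215 ± 64.2 TPM and Bst2 at 38.1 ± 9.41 TPM, while the surface receptor gene Siglech averaged 0.0200 TPM. A further deposited table, described below, had 3 of 6 T cell markers at 1 TPM or more, with Cd3d at 7.68 TPM. That table also had 3 plasmacytoid dendritic cell markers, 1 each of the B cell, neutrophil and dendritic cell lists, and 0 NK cell markers. Replicate 2 stood apart in cytoplasmic RNA. The 14 listed cytoplasm-rich RNAs, mitochondrial and ribosomal protein transcripts among them, summed to 772, 4268 and 863 TPM in replicates 1, 2 and 3. Levels, isoform ratios and variation between libraries are therefore also given without replicate 2.

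All 5 genes were among the strongly represented coding genes of the chromatin fraction. Sp140 came first of them at 416 ± 69.1 TPM and rank 43 of the 22028 coding genes, and Pml came last at 68.6 ± 28.2 TPM and rank 656 (SD, n = 3). Sp100 held rank 78, Sp110 rank 103 and Daxx rank 234. Among all coding genes 41.5% had a mean of at least 1 TPM, and those had a median of 7.53 TPM, so even Pml lay above the median detected gene. In bulk RNA, more cells that use a gene and more RNA per cell cannot be told apart.

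Sp140 (ENSMUSG00000070031.11, chr1:85600378-85645037, plus strand) had 411, 349 and 487 TPM in replicates 1, 2 and 3. Sp100 (ENSMUSG00000026222.16, chr1:85649988-85709998, plus strand) had 237, 265 and 372 TPM, a mean of 291 ± 71.1 TPM. Sp110 (ENSMUSG00000070034.13, chr1:85576899-85598817, minus strand) had 191, 218 and 346.5 TPM, a mean of 252 ± 83.2 TPM. The ranges of Sp100 and Sp110 overlapped, while each was below Sp140 within every library. Daxx (ENSMUSG00000002307.16, chr17:33909414-33915590, plus strand) had 150.1, 134 and 167 TPM, a mean of 150.4 ± 16.7 TPM. Pml (ENSMUSG00000036986.16, chr9:58218076-58249786, minus strand) had 45.9, 59.8 and 100.2 TPM. On the deposited TPM scale Daxx was the evenest of the 5 across libraries and Pml the most uneven, with a highest value 2.18 times its lowest, an order that differs on other scales. These levels rest on 35271 expected counts for Sp140, 21839 for Sp100, 29986 for Sp110, 15880 for Daxx and 10030 for Pml over the 3 libraries, so counting error is small beside the spread between libraries. The authors also deposited an interval for each TPM, and 11 of these 15 values lie outside their own interval, which is therefore not used as an error here. Without replicate 2 the mean TPM was 449 for Sp140, 305 for Sp100, 269 for Sp110, 159 for Daxx and 73.0 for Pml.

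A further transcript table that the authors made directly from the reads gave the same leading 3 genes and a higher level of Pml. Summed per gene, Sp140 had 526, 437 and 814 TPM in it, Sp100 313, 319 and 595 TPM, and Sp110 254, 229 and 439 TPM. Daxx had 149.7, 102 and 171 TPM there. Pml had 95.0, 105 and 233 TPM, a mean of 144 ± 77.3 TPM that is 2.10 times its mean in the gene table. For detected coding genes the median of that ratio was 1.24. Ratios of the other genes lay between 0.938 for Daxx and 1.42 for Sp140.

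**Figure D1:**
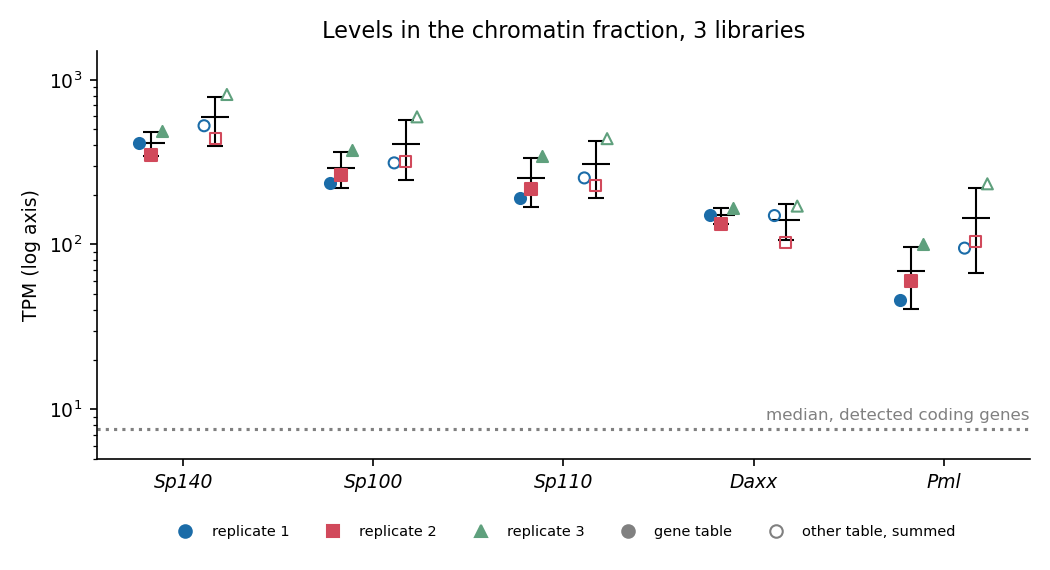
TPM on a log axis of the 5 genes in replicates 1 (circles), 2 (squares) and 3 (triangles), filled for the gene table and open for the other table; black bars give mean and SD, and the dotted line is the median of 7.53 TPM over detected coding genes. All 30 points lie above that line, and the other table lifts Pml to the level of Daxx.

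The order of the levels was the same in each library, Sp140 over Sp100 over Sp110 over Daxx over Pml. Sp140 exceeded Sp100 by 0.53 ± 0.23 on the log2(TPM + 0.1) scale, and Sp100 exceeded Sp110 by 0.23 ± 0.11. Sp110 exceeded Daxx by 0.70 ± 0.35 and Daxx exceeded Pml by 1.20 ± 0.49. Each of the 4 neighbouring differences was positive in 3 of 3 libraries and larger than its SD. By an exact sign-flip test, two-sided, p was 0.25 for each pair, before and after adjustment over 4 pairs, which is the smallest p that 3 libraries allow. In the other table the last step did not hold. Daxx exceeded Pml there by 0.06 on average, with a positive difference in 1 of 3 libraries, so the order of Daxx and Pml depends on the quantification.

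The coding gene outside the 5 whose TPM lay closest to each over the 3 libraries was found by the root mean square difference of log2 levels. For Sp110 this was Nlrc5, the activator of MHC class I genes, with 200.1, 213 and 345 TPM and a difference of 0.0432. For Sp100 it was Znrf1, a ubiquitin ligase (0.0657), for Daxx the integrin adaptor Tln1 (0.0551), for Pml the transcription factor gene Creb5 (0.0609) and for Sp140 the guanine nucleotide exchange factor gene Dock10 (0.136). Such nearness rests on 3 points. Within 0.25 there were 22 genes for Sp110, 28 for Sp100, 57 each for Daxx and Pml, and 5 for Sp140.

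Between libraries the 5 genes moved in ways that depended on the scale. In deposited TPM all 5 were highest in replicate 3. Pml, Sp110 and Sp100 were lowest in replicate 1, and Sp140 and Daxx in replicate 2. Protein-coding genes together held 18.0%, 23.7% and 24.3% of summed TPM in replicates 1, 2 and 3, so a coding gene of constant share would read lower in replicate 1. With TPM rescaled to the total of protein-coding genes, or with counts scaled by edgeR's trimmed mean (TMM), all 5 were lowest in replicate 2, and Sp140 and Daxx were highest in replicate 1.

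On the TMM scale Sp140 had 13890, 9588 and 12006 counts in replicates 1, 2 and 3, and Daxx had 6459, 4479 and 5115. Both were highest in replicate 1. Pml had 2974, 2757 and 4116 counts, Sp110 had 10003, 8194 and 11517, and Sp100 had 7660, 6343 and 7790, all highest in replicate 3, except that Sp100 was highest in replicate 1 with DESeq2's size factors. Replicate 2 lay below the mean of the other libraries by 0.43 on the log2 scale for Sp140, 0.39 for Sp110, 0.36 for Daxx, 0.34 for Pml and 0.28 for Sp100. Over all 14200 genes tested, the median difference of replicate 2 was 0.08 higher, that of replicate 1 was -0.12 and that of replicate 3 was 0.01. The 14 cytoplasm-rich RNAs were all higher in replicate 2, with a median of 2.41, and the part of that RNA in the low values of the 5 genes was not tested.

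All 5 genes varied between libraries by more than counting error, as did 68.8% of the 14200 genes tested, so that call says little about them. The chi-square test against Poisson counts, adjusted by Benjamini-Hochberg over all of these genes, gave its largest adjusted p among the 5 genes, 4.7e-38, for Sp100. The coefficient of variation beyond counting was 22.2% for Pml, 18.8% for Daxx, 18.2% for Sp140, 16.8% for Sp110 and 11.0% for Sp100, against a median of 15.6% for the 1299 genes with a mean of at least 2000 counts. Sp100 lay below that median with TMM scaling. The order of the 5 rested on single libraries and on the scaling. Without replicate 2 the coefficient was 10.3% for Sp140, 9.90% for Sp110, 16.4% for Daxx and 22.7% for Pml, and 0.324% for Sp100 (adjusted p = 0.388), whose call was lost. Without replicate 3 it was 9.79% for Pml, 30.0% for Daxx and 30.3% for Sp140, and without replicate 1 it was 9.26% for Daxx. With DESeq2's size factors Daxx (23.1%) exceeded Pml (21.9%), and in the other table Daxx had 28.4% and Pml 14.2%.

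**Figure D2:**
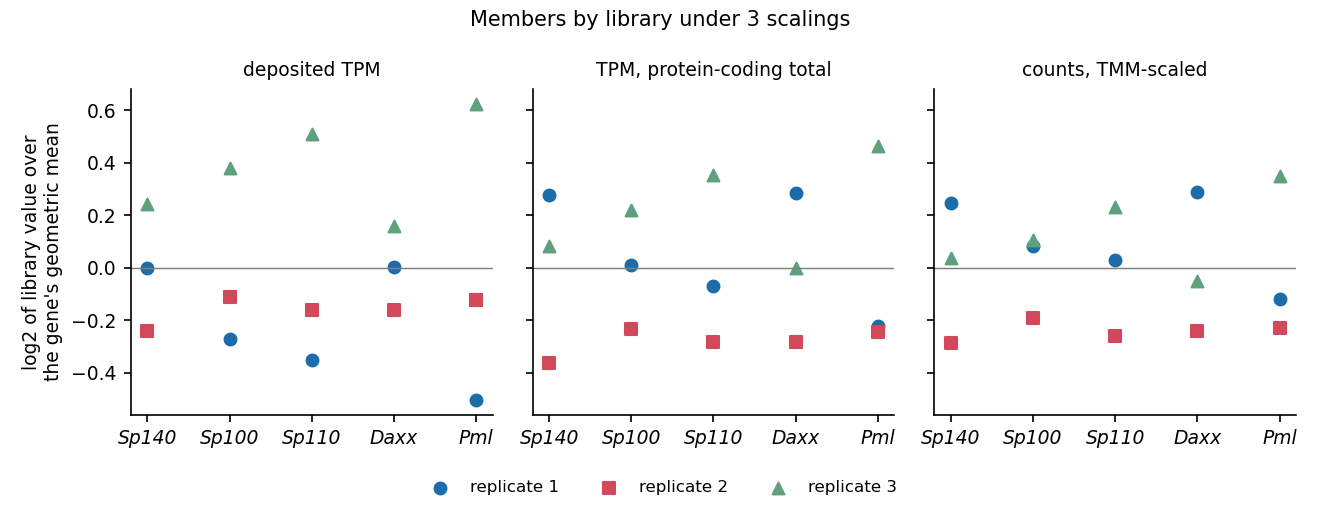
Values of the 5 genes in each library as log2 over the gene's geometric mean, in deposited TPM (left), TPM rescaled to protein-coding genes (middle) and TMM-scaled counts (right). Replicate 3 is highest for all 5 on the left, and replicate 2 is lowest for all 5 in the middle and on the right.

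The isoforms set Sp110 apart from the rest of the family. Transcripts annotated as holding a retained intron took 79.3% ± 2.24 of Sp110's TPM and its protein-coding transcript took 4.13% ± 1.22. Sp140 and Daxx showed the opposite, with 17.6% ± 2.59 and 18.8% ± 4.07 in retained-intron isoforms, and 66.0% ± 5.48 and 77.2% ± 3.38 in protein-coding ones (SD, n = 3). Sp100 and Pml lay between, with 45.0% ± 5.27 and 35.1% ± 3.43 in retained-intron isoforms. In Sp110 the retained-intron share was 81.8%, 78.3% and 77.6% in replicates 1, 2 and 3, and the protein-coding share was 5.46%, 3.88% and 3.06%, so no library departed from the pattern. In the other table these 2 classes held 62.1% and 17.9% of Sp110's TPM. By expected counts, which do not divide by length, retained-intron isoforms took 83.7% ± 1.92 of Sp110, 18.0% ± 1.48 of Pml, 12.9% ± 1.26 of Sp100, 7.83% ± 0.717 of Sp140 and 6.20% of Daxx. Sp110 was the gene of the 5 in which these isoforms led on both scales. Over 5928 coding genes with both kinds of transcript and a mean of at least 1 TPM, the median gene held 41.5% in retained-intron and 48.0% in protein-coding isoforms.

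**Figure D3:**
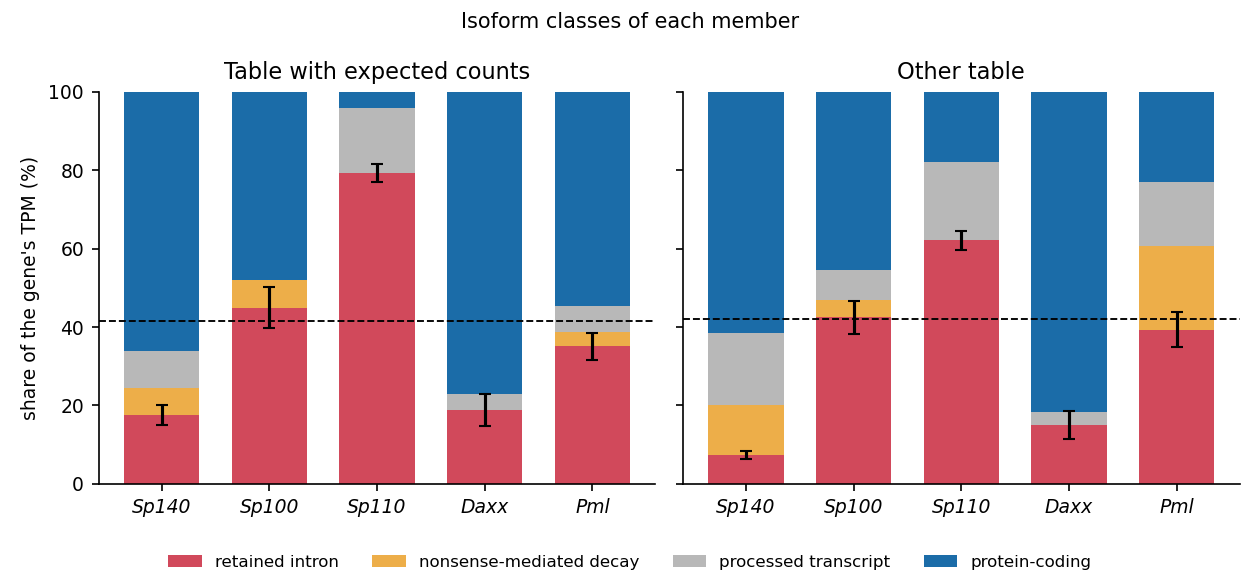
Share of each gene's TPM by annotated isoform class (stacked bars, means of 3 libraries) in the table with expected counts (left) and the other table (right); error bars are the SD of the retained-intron share, and the dashed lines mark its median over 5928 coding genes, 41.5% and 42.0%. Sp110 lies above the line and Sp140 and Daxx below it in both tables.

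The log2 ratio of summed TPM, retained-intron over protein-coding isoforms, was tested against 0 with limma in 5602 genes. Of these 19.4% had higher retained-intron isoforms, 29.7% had higher protein-coding isoforms, and the median ratio was -0.23. Sp110 had ratios of 3.89, 4.32 and 4.65 in replicates 1, 2 and 3, a mean of 4.29 ± 0.29 (SE, limma adjusted p = 0.000743), which exceeded 99.4% of the genes tested. Daxx had ratios of -1.64, -2.21 and -2.31, a mean of -2.05 ± 0.29 (SE, limma adjusted p = 0.00338). Sp140 had -2.24, -1.58 and -1.91, a mean of -1.91 ± 0.28 (SE, limma adjusted p = 0.00396). Every library of Sp110 lay above 0, and every library of Daxx and Sp140 lay below it. Pml had -0.84, -0.65 and -0.43 with a limma adjusted p of 0.0971, and Sp100 had -0.49, 0.01 and 0.20 with 0.805, so neither was called. In all, 3 of 5 genes were called, against 49.1% of all genes tested. Without replicate 2 the calls were the same, with mean ratios of 4.27, -1.98 and -2.08 for Sp110, Daxx and Sp140, and of -0.63 and -0.14 for Pml and Sp100, which were not called.

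The other table kept the direction for these 3 genes and changed the size. Its mean ratio for Sp110 was 1.81 ± 0.24 (SE, limma adjusted p = 0.00132), above 81.3% of the 7064 genes it allowed, so Sp110's place among the most extreme genes depends on the table. There Sp140 stood at -3.07 and Daxx at -2.46, both called with limma adjusted p of 0.000245 and 0.000611. Pml changed sign, with ratios of 0.40, 0.78 and 1.14 and a mean of 0.77 ± 0.25 (SE, limma adjusted p = 0.0382). Among all genes tested there, 35.4% were called with higher retained-intron isoforms and 30.4% with higher protein-coding isoforms.

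**Figure D4:**
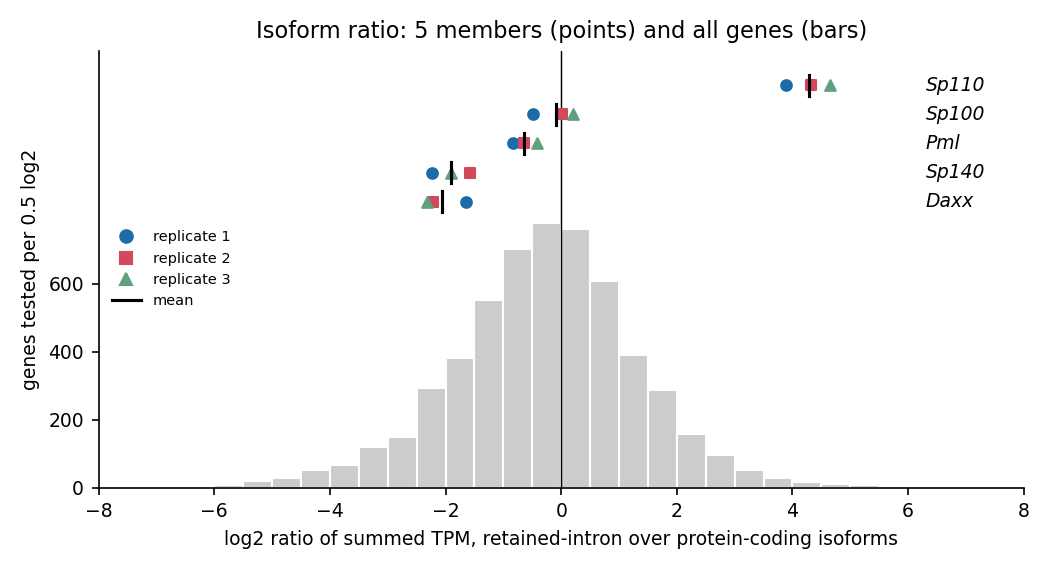
Log2 ratio of retained-intron over protein-coding TPM: points are the 5 genes in each library with a black mark at the mean, and grey bars count the 5602 genes tested per 0.5 log2. The 3 points of Sp110 lie between 3.89 and 4.65, in the right tail of the bars, which run on to 8.

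The retained-intron models of the family are of 2 kinds. Of 10 such models, 4 hold a complete intron of a coding transcript of the same gene, and each of these 4 introns interrupts the coding sequence. The other 6, all 3 of Sp100, both of Pml and Sp110-209, hold no complete intron of a coding transcript. The junctions of the 4 complete introns are printed here, because reads across them separate these models from spliced RNA. Capitals mark 20 bases of intron and lower case 20 bases of the adjoining exon, all 5′ to 3′ on the gene's strand, from the GENCODE M21 transcripts on mm10.
Sp110-202 intron, 5′ junction: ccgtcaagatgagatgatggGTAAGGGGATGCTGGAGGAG
Sp110-202 intron, 3′ junction: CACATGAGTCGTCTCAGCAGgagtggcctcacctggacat
Sp110-204 intron, 5′ junction: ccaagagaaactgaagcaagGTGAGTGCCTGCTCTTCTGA
Sp110-204 intron, 3′ junction: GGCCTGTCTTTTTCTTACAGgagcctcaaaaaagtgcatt
Sp140-204 intron, 5′ junction: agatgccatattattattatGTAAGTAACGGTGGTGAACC
Sp140-204 intron, 3′ junction: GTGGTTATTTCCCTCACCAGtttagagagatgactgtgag
Daxx-209 intron, 5′ junction: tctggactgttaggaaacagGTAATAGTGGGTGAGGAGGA
Daxx-209 intron, 3′ junction: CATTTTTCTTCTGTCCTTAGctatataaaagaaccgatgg

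All 4 introns begin with GT and end with AG. The Sp110-202 intron is intron 7 of 11 of the coding transcript Sp110-201, with 1162 nt at chr1:85585053-85586214. The Sp110-204 intron is intron 10 of 11, with 444 nt at chr1:85579200-85579643. The Sp140-204 intron is intron 15 of 16 of Sp140-201, with 190 nt at chr1:85643013-85643202, and the Daxx-209 intron is intron 6 of 7 of Daxx-201, with 116 nt at chr17:33913727-33913842. Every window of 50 nt in the introns of Sp110-202, Sp140-204 and Daxx-209 occurred in no other annotated transcript on the same strand. On the opposite strand, 100% of the windows of the Sp140-204 intron and 5.93% of those of the Sp110-202 intron are in an annotated transcript, against 0% for the Sp110-204 and Daxx-209 introns. The Sp140-204 intron lies within the span of the antisense gene Gm17017, and without a known strand setting reads of the 2 cannot be told apart there. Of the windows of the Sp110-204 intron, 39.7% occurred in no other annotated transcript on the same strand. Another 23.5% occurred in transcripts of another gene, and Sp110-209 shares the intron in part. Unfinished transcripts that hold these introns before splicing and finished isoforms that keep them cannot be told apart in chromatin RNA.

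In the table with expected counts, Sp110 RNA was assigned chiefly to 2 long retained-intron transcripts. Sp110-204, of 2293 nt, had 104, 99.7 and 166 TPM in replicates 1, 2 and 3, or 49.4% ± 4.69 of the gene. Sp110-202, of 2310 nt, had 45.2, 51.4 and 75.2 TPM, or 23.0% ± 1.11. The coding transcript Sp110-201 had 10.4, 8.44 and 10.6 TPM. Every library placed Sp110-204 first and Sp110-201 far below it. In the other table Sp110-201 had 55.8, 39.7 and 63.4 TPM and 17.9% of the gene, while Sp110-204 had 25.3%, Sp110-202 16.7% and Sp110-209 20.1%. Within the gene, 2.03% of the windows of Sp110-201 and 9.09% of those of Sp110-204 are found in no other Sp110 transcript, against 53.5% for Sp110-202, so few reads can separate the first 2. Of all their windows, 43.9% of those of Sp110-201 and 39.4% of those of Sp110-204 also occur in other genes, against 12.6% for Sp110-202. The annotation's support level, where 1 is the strongest, is 1 for Sp110-201, 2 for Sp110-202 and 5 for Sp110-204. The processed transcripts Sp110-205, Sp110-203 and Sp110-206 held 7.62%, 5.84% and 0.757% of the gene, against 6.08%, 6.01% and 5.01% in the other table.

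In the table with expected counts Sp140 was led by its full-length coding transcript. Sp140-201, of 2417 nt, had 184, 171 and 242 TPM and 47.9% ± 2.70 of the gene. Sp140-206, a short coding model of 596 nt, had 106, 37.7 and 86.2 TPM, and was lowest in replicate 2. The retained-intron model Sp140-204 had 61.2, 70.0 and 87.3 TPM. In the other table Sp140-201 had 29.4% of the gene, Sp140-206 had 32.2% and Sp140-204 had 7.35%. The processed transcript Sp140-203 held 9.48% and the decay model Sp140-202 held 6.90%, against 18.3% and 12.8% in the other table.

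Sp100 was spread over many models. By TPM its 3 retained-intron models Sp100-208, Sp100-205 and Sp100-206 held 16.8%, 16.7% and 11.4% of the gene. They are short, of 699, 541 and 395 nt, and by expected counts all 3 together took 12.9% ± 1.26 against 45.0% by TPM, since TPM divides by length. The coding transcripts Sp100-201, Sp100-213 and Sp100-210 held 15.8%, 11.3% and 9.49% by TPM. Sp100-201 had 29.6, 43.5 and 69.2 TPM in replicates 1, 2 and 3, whereas Sp100-213 had 35.5, 29.4 and 28.8 TPM. Sp100-213 has no window of its own in the gene and had 44.6, 33.0 and 34.9 TPM in the other table, so its course across libraries is uncertain. The decay model Sp100-209, of 3807 nt, held 6.96% of TPM and 22.0% of counts. In the other table the shares by TPM were 10.4% for Sp100-208, 12.8% for Sp100-205, 19.2% for Sp100-206, 8.59% for Sp100-201, 10.2% for Sp100-213, 11.8% for Sp100-210 and 4.42% for Sp100-209. Sp100-203 and Sp100-207, listed at 0 in the first table, had 7.77% and 6.43% there.

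Daxx was led by the coding transcript Daxx-201, of 2581 nt, with 72.6, 61.9 and 76.9 TPM and 46.9% ± 1.33 of the gene. The coding models Daxx-208 and Daxx-202 held 18.6% and 10.9%, and the retained-intron model Daxx-209 held 18.8% by TPM and 6.20% by counts. Daxx-209 had 35.2, 22.7 and 26.7 TPM and was highest in replicate 1. The other table gave 33.0% for Daxx-201, 28.4% for Daxx-208, 19.7% for Daxx-202 and 15.0% for Daxx-209. In the table with expected counts, the coding transcript Pml-211, of 2652 nt, led Pml by TPM. It had 13.2, 16.0 and 26.4 TPM and 27.2% ± 1.34 of the gene. The long coding transcript Pml-202 had 6.06, 12.8 and 20.9 TPM, and Pml-201 had 5.74, 0.640 and 2.85 TPM. Neither Pml-201 nor Pml-202 has a window of its own, so their split is uncertain. The retained-intron models Pml-208 and Pml-210 held 20.1% and 15.1%, the processed transcript Pml-212 6.50% and the decay model Pml-206 3.72%. In the other table Pml-208 reached 33.3% and Pml-206 reached 21.2%, against 13.7% for Pml-211, 8.69% for Pml-202, 6.12% for Pml-210, 16.3% for Pml-212 and 0.0396% for Pml-201. The short models Pml-208, Pml-206 and Pml-212 took more of Pml in that table, where the gene's level was also higher.

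Sp110, Sp140 and Sp100 lie side by side on chromosome 1 within 133.1 kb. By the GENCODE gene ends, Sp110 and Sp140 point away from each other with 1560 nt between them. RefSeq also lists a start of Sp110 5074 nt further upstream, at base 85603891, which lies inside Sp140. By GENCODE Sp100 follows Sp140 on the same strand after 4950 nt. Within 200 kb of them are 16 further annotated genes, of which 6 had a mean of at least 1 TPM, and all 6 were below each of the 3 family members. By the other table the number was 9. The 3 added there, Gm25472 at 212 TPM, Gm22906 at 76.0 TPM and 9930111H07Rik at 2.09 TPM, are listed at 0 in the gene table. Gm16094, an antisense noncoding gene in the gap between Sp110 and Sp140, had 34.3, 77.2 and 148 TPM in replicates 1, 2 and 3, and a mean of 176 TPM in the other table. Gm17017, which runs against the end of Sp140 and the start of Sp100, had 31.7, 46.6 and 73.3 TPM, and Gm10552, within Sp140 on the opposite strand, had 19.8, 38.1 and 41.6 TPM. All 3 antisense genes were lowest in replicate 1 and highest in replicate 3. A630001G21Rik, which follows Sp100 on the opposite strand, had 24.5 ± 8.74 TPM but 174 TPM in the other table. Cab39, a scaffold of the LKB1 kinase complex, had 12.6 ± 2.79 TPM and the membrane protein gene Itm2c 9.76 ± 4.63 TPM.

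Expected counts assigned to Gm17017 came to 20.5% of those of Sp140 and 33.1% of those of Sp100. Its overlap with the 2 gene spans is 3816 nt and 598 nt. The strand setting of the counting is not given in the sources used here, so reads of overlapping genes on opposite strands cannot be told apart. On the opposite strand, 40.7% of the distinct 50-nt windows of Sp140 transcripts occur in another annotated transcript, chiefly of Gm17017, against 7.09% for Sp110, 1.24% for Pml, 0.772% for Sp100 and 0% for Daxx. Neither Daxx nor Pml overlaps a gene with counts. Mir6385 lies within Pml on the opposite strand and had 0 counts.

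Sequence shared with related copies touched Sp140 and Sp110 most, and single transcripts of Sp100. Of the distinct 50-nt windows of all transcripts of a gene, 38.1% of those of Sp140 and 36.0% of those of Sp110 also occur in transcripts of another gene, against 5.86% for Sp100, 0.390% for Pml and 0% for Daxx. Within Sp140 the share was 54.6% for the coding transcript Sp140-201, 46.3% for Sp140-206 and 16.5% for the retained-intron model Sp140-204. For the coding transcript Sp110-201 it was 43.9%. Within Sp100 the share was 49.5% for the retained-intron model Sp100-208, and 14.3% to 15.9% for Sp100-201, Sp100-213 and Sp100-210. Little RNA was assigned to the copies with the largest overlap. Gm16026, a pseudogene at chr1:85266698-85285491 that shares 26.7% of the windows of Sp110, had 0.213 ± 0.0737 TPM, and 2.91 TPM in the other table. Gm5831, a processed pseudogene on chromosome 9 that shares 15.1% of those of Sp140, had 0.597 ± 0.882 TPM, and 0 TPM in the other table. Among expressed copies, A530032D15Rik shares 13.3% of the windows of Sp140 and had 62.0, 46.0 and 78.3 TPM, and C130026I21Rik shares 12.7% of those of Sp140 and 3.43% of those of Sp110 and had 35.4, 45.5 and 71.8 TPM. How reads were split between Sp140, Sp110 and these 2 genes is uncertain. The mean levels of the copies were 14.9% and 12.3% of that of Sp140, and that of C130026I21Rik was 20.2% of that of Sp110. In the other table A530032D15Rik had a mean of 60.7 TPM and C130026I21Rik 112 TPM.

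Promoter sequence was read for all 5 genes from RefSeq (GRCm38.p6), with 9 windows of 300 bases, 250 before and 50 after each start. The windows of Sp100 overlap each other, as do those of Daxx, so 1 site can count in more than 1 of the 9. Motifs were sought on both strands, and each share given is over all 32851 promoter windows. The interferon-stimulated response element, searched as GAAA, any 2 bases and GAAA, is in 3.44% of promoters and in 0 of the 9 windows. The interferon-gamma activated site, searched as TTCNNNGAA, is in 8.30% of promoters and also in 0 of the 9. The composite of ETS and IRF sites, searched as GGAA, any 2 bases and GAAA, is in 2.72% of promoters. It is in both windows of Sp100, as 1 site that the 2 overlapping windows share. The GC box GGGCGG is in 35.7% of promoters and in 8 of the 9 windows, at least 1 for each gene, with sites of Sp100 and Daxx counted in more than 1 window. The box CCAAT is in 37.4% of promoters and in 3 of the 9 windows, of Sp110 and Daxx, and the PU.1-type ETS site GAGGAAGT is in 3.20% and in the window of Pml. A match is a run of letters and was not tested for binding, and absence says only that these letters are not in these windows.

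The upstream 250 bases of Sp110, Sp100 and Pml are shown, the genes with a RefSeq start within 7 nt of the start of the GENCODE gene. Capitals mark the matches on either strand. In Sp110 these are a GC box and a CCAAT box, in Sp100 the ETS and IRF composite 40 bases before the start and a GC box, and in Pml 2 GC boxes and the first letters of the ETS site that crosses into the transcript.
Sp110 promoter, minus strand, chr1:85598811-85599060: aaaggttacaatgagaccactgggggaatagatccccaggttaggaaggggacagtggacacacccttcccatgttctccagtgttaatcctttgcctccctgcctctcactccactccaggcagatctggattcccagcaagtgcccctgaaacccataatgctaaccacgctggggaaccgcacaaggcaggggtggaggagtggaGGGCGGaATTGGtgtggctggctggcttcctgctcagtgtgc
Sp100 promoter, plus strand, chr1:85649738-85649987: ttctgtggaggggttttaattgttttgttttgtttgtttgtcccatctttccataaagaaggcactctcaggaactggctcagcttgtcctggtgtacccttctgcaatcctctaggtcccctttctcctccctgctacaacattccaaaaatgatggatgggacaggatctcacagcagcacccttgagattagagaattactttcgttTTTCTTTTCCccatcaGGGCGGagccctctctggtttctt
Pml promoter, minus strand, chr9:58249787-58250036: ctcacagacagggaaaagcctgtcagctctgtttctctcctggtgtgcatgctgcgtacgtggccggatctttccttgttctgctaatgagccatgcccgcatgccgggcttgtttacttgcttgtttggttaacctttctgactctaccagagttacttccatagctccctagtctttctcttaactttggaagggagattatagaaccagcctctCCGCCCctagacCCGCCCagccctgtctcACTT

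Most known partners of PML bodies stood below the body genes themselves. Of 56 partner genes in 4 lists, 53 had a mean of at least 1 TPM, against 41.5% of all coding genes, and the median was 14.4 TPM. The median of the 5 body genes was that of Sp110, 252 TPM. Partner genes above Pml numbered 4, above Daxx 1 and above Sp110 0, against 1, 1 and 0 in the other table. Leaving out replicate 2 left 53 genes at 1 TPM or more. The lists were drawn from textbook knowledge, are no random draw of coding genes, and describe which partners had chromatin RNA.

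The SUMO system, the enzymes and modifiers that act on Pml and Sp100, had 16 of 16 listed genes at 1 TPM or more and a median of 16.8 TPM. The SUMO protease gene Senp3 had 32.5, 30.4 and 51.4 TPM in replicates 1, 2 and 3, and Senp6, which encodes another SUMO protease, had 28.9 ± 5.63 TPM. The protease gene Senp7 was lowest at 5.44 ± 1.90 TPM. Senp3 and Senp6 were below Pml in every library.

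Of the histone and heterochromatin partners 13 of 14 reached 1 TPM, with a median of 12.0 TPM. H3f3b, which encodes the histone H3.3 that Daxx deposits, had 86.5, 143 and 97.9 TPM and was highest in replicate 2. Morc3, an ATPase found in PML bodies, had 82.5, 80.3 and 127 TPM. Atrx, the remodeller that works with Daxx, had 45.5, 54.4 and 57.0 TPM, and Daxx exceeded it in each library. Asf1b, a histone chaperone of dividing cells, was lowest at 0.273 TPM, which rests on 7 counts.

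Of the p53, repair and death partners 14 of 15 reached 1 TPM, with a median of 10.7 TPM. Mdm2, the ubiquitin ligase of p53, had 111, 153 and 190.2 TPM and was the partner counted above Daxx. The means, 151.3 ± 39.9 TPM for Mdm2 and 150.4 ± 16.7 TPM for Daxx, were level within their SDs. In replicate 1 Mdm2 was below Daxx, which had 150.1 TPM. The deubiquitinase Usp7 had 74.3 ± 10.3 TPM and the kinase gene Hipk2, whose product phosphorylates p53 in PML bodies, 54.0 ± 9.42 TPM. Chek2, a checkpoint kinase, was lowest at 0.577 TPM but stood at 38.0 TPM in the other table, so its level is uncertain. Of the genes of PML turnover and fusion 10 of 11 reached 1 TPM, with a median of 14.5 TPM. The SUMO-targeted ubiquitin ligases Rnf111 and Rnf4 had 35.9 ± 7.86 and 34.0 ± 3.27 TPM, the ligase Ube3a had 23.4 ± 3.84 TPM, and Zbtb16, fused to the retinoic acid receptor in some human leukaemias, was lowest at 0.317 ± 0.0569 TPM.

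**Figure D5:**
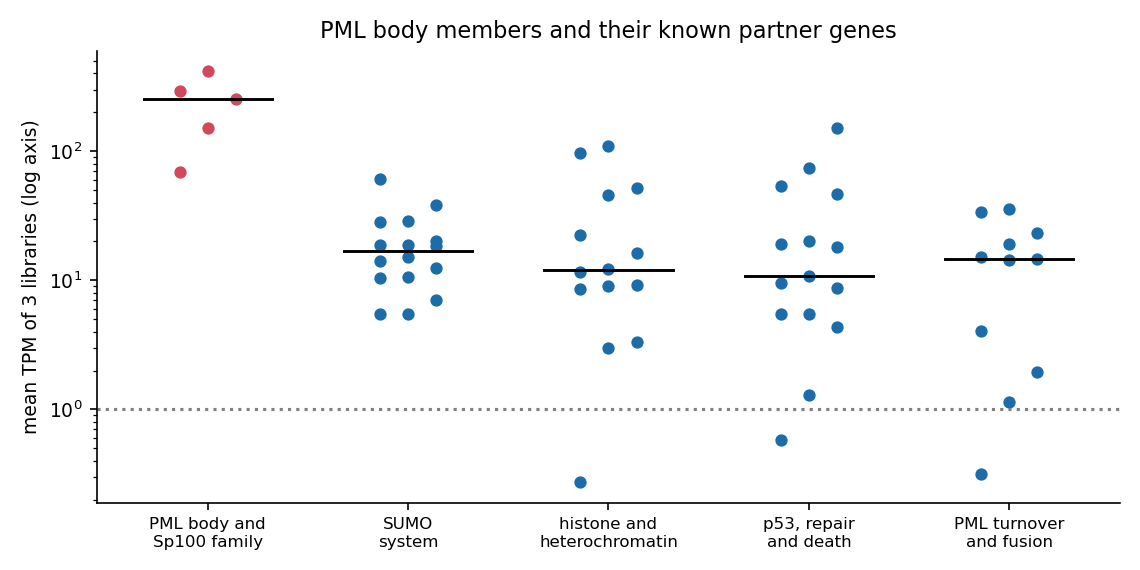
Mean TPM over 3 libraries on a log axis of the 5 PML body and Sp100 family genes (left, red) and of the 56 genes of 4 partner lists (blue), with a black line at each median and a dotted line at 1 TPM. The family median of 252 TPM lies above the list medians of 10.7 to 16.8 TPM.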

How the data were processed

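Chromatin RNA of 1 group of 3 libraries was analysed, grouped by the replicate numbers of the labels. Per the labels and deposited notes, the authors aligned reads to mm10 transcripts (GENCODE M21) and deposited gene and transcript tables of expected counts, TPM and FPKM, in the column layout of RSEM. The bounds of TPM intervals, a signal that is never negative, were deposited too, do not always hold the TPM and were used in no test. A further deposited transcript table, the other table, holds estimated counts and TPM that the authors made from the reads themselves, and was summed per gene here. Tool names and the strand setting were not given in the sources used here. Entries outside the annotation, 0.179% to 0.845% of expected counts, were left out.

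Levels were ranked by mean TPM. Isoform ratios used log2(summed TPM + 0.1) and limma 3.58.1, for genes whose mean count reached 50. Variation between libraries used expected counts rounded to whole numbers, a mean of at least 10, TMM factors of edgeR 4.0.16 and a chi-square test. P-values were adjusted by Benjamini-Hochberg over all genes tested at a threshold of 0.05. Windows of 50 nt came from M21 transcripts. Alternatives were the other table, FPKM, other pseudocounts, filters and scalings (DESeq2 1.42.0), and each library left out. R 4.3.3 and pandas were used.

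Named are the 5 genes, transcripts with at least 5% of a gene in either table, the 3 highest and the lowest of each partner list, neighbours within 200 kb at 1 TPM or more, and the nearest gene by level. One gene that this rule names is not reported here. The members and lists were chosen with earlier results of these data known.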

Additional observations from a re-analysis of the deposited data

How the results depend on the processing

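Each result was recomputed under the alternatives that apply to it, which gave 376 values, of which 318 counted as unchanged. Levels, shares and counts were judged by size, isoform ratios and coefficients of variation by sign and call, and order differences by sign alone. A mean level or share counted as changed if it moved by its SD, which leaving out 1 library cannot bring about. The 15 such values for levels, 15 each for retained-intron and protein-coding shares and 96 for single transcripts were therefore unchanged by construction. They do not measure how far a result rests on 1 library. A ratio, coefficient or order difference counted as unchanged can differ in size, such as Sp110's ratio, 4.29 against 1.81 with the other table. The step from Daxx to Pml with the other table, 0.06 and positive in 1 of 3 libraries, also counted as unchanged, though that order did not hold. With the other table the mean level moved by more than its SD to 592 TPM for Sp140, 409 TPM for Sp100 and 144 TPM for Pml, and stayed within it for Sp110 and Daxx. Rescaled to the protein-coding total, levels were 1921 for Sp140, 1323 for Sp100, 1135 for Sp110, 696 for Daxx and 307 for Pml, by construction of the scale. With the other table the retained-intron share was 7.35% for Sp140, 62.1% for Sp110 and 39.4% for Pml. Genes called for an isoform ratio numbered 4646 of 7064 with the other table, of which 2501 had higher retained-intron isoforms, against 2750 and 1084 of 5602. Leaving out 1 library gave 1564 to 2642 calls, and 630 to 949 with higher retained-intron isoforms, both lowest without replicate 1. The ratio of Pml was 0.77 with the other table. That of Sp100 was 0.11 with decay and processed transcripts added, and -0.24 to 0.11 with 1 library left out. None of these ratios of Sp100 was called, and the cause of the changes was not tested. With a pseudocount of 1 Pml passed the threshold (limma adjusted p = 0.0447). The partner counts without each library, 52 to 53, were added after the data were seen. No paired analysis was possible because the series has 1 group. Expected counts limit transcripts with few windows of their own more than genes. Levels cover chromatin RNA of 1 condition, and fewer transcripts per cell and less RNA in the fraction cannot be told apart.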
